A study of Homo sapiens with 12 samples.

Results

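The genes described here encode the machinery of mitosis: spindle checkpoint proteins, mitotic cyclins and kinases, kinetochore and spindle proteins, cytokinesis factors, condensin subunits and the anaphase regulators. They were chosen by name, with earlier results of these data known, as the rows of the deposited count table that carry 46 fixed symbols. All 46 were found among the 56638 genes of the table. All 46 also passed the filter on low counts, which kept 19130 genes. Their messenger RNA was measured in NT2/D1, an embryonal carcinoma line of human origin with a pluripotent phenotype. The tested cells carried a CRISPR/Cas9-mediated deletion of PRMT6 (KO), an arginine methyltransferase whose known substrates include histone H3, and the comparison cells were a CRISPR/Cas9 control (CT) with PRMT6 intact. Each genotype was sequenced without treatment and after 3 days in 1 µM all-trans retinoic acid (ATRA), which drives this line to differentiate, with 3 libraries in each of the 4 groups. All groups were grown in the same serum-containing medium. The knockout samples all come from 1 line, so a property of that line and the loss of PRMT6 cannot be told apart. No label says that libraries of a group are separate cultures, and the p-values therefore reflect only how these libraries vary, a spread that may be technical.

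In a dividing cell most of these genes are transcribed in a late wave that peaks as the cell leaves G2 and enters mitosis. The MuvB core, with B-MYB and FOXM1, activates them through a promoter element called the cell cycle genes homology region (CHR), often together with CCAAT boxes that bind NF-Y. In resting or arrested cells the same core joins p130 or p107 and E2F4 in the DREAM complex, which represses them, and p21, the product of CDKN1A, promotes that switch. Pluripotent cells cycle fast and transcribe these genes strongly. In bulk RNA, fewer cells in mitosis and less of each RNA per cell cannot be told apart.

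Total counts ran between 25.5 M and 32.3 M in the KO untreated libraries, 35.8 and 60.4 M in CT untreated, 35.4 and 38.2 M in KO with ATRA, and 32.1 and 38.4 M in CT with ATRA. PRMT6 had 2 counts over the 3 KO untreated libraries, against 22.4, 1.94 and 8.94 CPM (counts scaled to a common library size) in CT untreated, and 2 counts over the KO libraries with ATRA, against 29.9, 15.9 and 26.8 CPM in CT with ATRA. All 10 pluripotency markers listed had a group mean of 5 CPM or more in every group, though TDGF1 and NANOG stood under 5 CPM in single CT libraries with ATRA. By the edgeR test described below, 2 of these 10 were lower in KO untreated than in CT untreated, SOX2 (-1.80) and LIN28B (-1.59). That is 20% of them, against 21.9% of all genes. The other 8 were not called, and 3 of the 10 lay above 0 (SALL4, POU5F1 and DNMT3B). With ATRA 1 was lower, SOX2 (-1.96), which is 10%, against 4.24% of all genes, and 0 were higher. The summed level of 10 fibroblast markers was 2248 to 13918 CPM in KO untreated, against 449 to 543 CPM in CT untreated, and 2258 to 12427 CPM in KO with ATRA, against 270 to 1518 CPM in CT with ATRA. Most of the sum was COL3A1 and COL1A1 in every KO library. In CT untreated 2 it was mostly THY1, at 414 CPM, and THY1 was also the largest part in CT ATRA 2, at 122 CPM. Without ATRA 6 of the 10 markers were higher in KO, 1 (PDGFRA) was lower and 3 were not called, while with ATRA 3 were higher and 0 lower. KO untreated 3 and KO ATRA 2 held the low ends of these KO ranges, no marker was at 0 in all libraries of a group, and the part of these genes' RNA in the results was not tested. KO ATRA 1 and 3, and to a lesser degree KO untreated 1 and 2, were nearly identical, with a chi-square per gene of 1.91 and 9.01 against 78.1 to 416 for all other pairs within a group. They exceeded sampling noise and were kept as separate libraries, and counts with each such pair summed are given beside the results.

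The promoters of 5 members, picked by name, are printed to show elements common in the set, in 3 genes that fell in the KO and in 2 that did not pass the test. Each line gives the RefSeq window from 250 bases before to 50 after the gene's start on GRCh38.p14, 5′ to 3′ on the gene's strand. CDK1 has 2 such windows, and the one with more matches is printed. The windows are BUB1 at chr2:110678014-110678313 on the minus strand, CDK1 at chr10:60778228-60778527, CCNB2 at chr15:59104896-59105195, PLK1 at chr16:23678639-23678938 and CDC20 at chr1:43358731-43359030, the last 4 on the plus strand. Capitals mark 3 kinds of word on either strand. A CHR word is TTTGAA, with TTCGAA taken as its variant. A CCAAT box is the word CCAAT. An E2F word is TTGGCGC in its first form, while the form TTCGCGC and then also the form TTCCCGC were counted with it. A CCAAT box read on the other strand is ATTGG, which shares letters with the first E2F form, so a single stretch can count for both.
BUB1: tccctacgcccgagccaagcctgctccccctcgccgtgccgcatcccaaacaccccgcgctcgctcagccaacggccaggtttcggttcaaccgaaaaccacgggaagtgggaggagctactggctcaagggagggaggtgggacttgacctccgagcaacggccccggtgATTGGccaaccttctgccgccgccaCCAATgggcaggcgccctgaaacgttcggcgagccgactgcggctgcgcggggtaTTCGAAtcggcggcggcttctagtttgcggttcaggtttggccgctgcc
CDK1: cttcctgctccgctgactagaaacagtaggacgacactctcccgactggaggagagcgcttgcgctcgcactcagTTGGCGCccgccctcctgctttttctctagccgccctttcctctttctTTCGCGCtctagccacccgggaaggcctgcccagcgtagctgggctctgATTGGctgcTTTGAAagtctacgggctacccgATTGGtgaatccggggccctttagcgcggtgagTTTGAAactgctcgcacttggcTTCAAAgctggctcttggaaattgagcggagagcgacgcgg
CCNB2: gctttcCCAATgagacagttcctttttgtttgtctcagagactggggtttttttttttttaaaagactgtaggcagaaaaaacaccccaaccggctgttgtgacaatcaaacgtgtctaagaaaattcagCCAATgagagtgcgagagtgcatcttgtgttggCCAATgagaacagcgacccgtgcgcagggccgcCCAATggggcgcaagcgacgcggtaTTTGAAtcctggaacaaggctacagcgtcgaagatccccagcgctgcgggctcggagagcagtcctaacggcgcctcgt
PLK1: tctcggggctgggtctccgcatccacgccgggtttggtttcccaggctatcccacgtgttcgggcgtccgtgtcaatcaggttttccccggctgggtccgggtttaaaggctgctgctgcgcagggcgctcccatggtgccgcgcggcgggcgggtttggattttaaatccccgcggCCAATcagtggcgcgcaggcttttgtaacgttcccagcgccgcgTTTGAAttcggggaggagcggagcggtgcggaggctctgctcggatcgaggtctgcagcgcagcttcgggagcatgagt
CDC20: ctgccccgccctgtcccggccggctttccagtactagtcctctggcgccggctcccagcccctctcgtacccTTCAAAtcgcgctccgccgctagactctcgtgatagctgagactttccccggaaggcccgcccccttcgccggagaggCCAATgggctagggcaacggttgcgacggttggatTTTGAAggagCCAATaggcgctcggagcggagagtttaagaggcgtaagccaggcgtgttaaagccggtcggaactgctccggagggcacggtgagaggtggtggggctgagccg
A CHR word stood in at least 1 window of 32 of the 39 members that have one (82.1%), against 19.5% of 27305 genes with a window. CCAAT was present in 30 of the 39 (76.9%, against 39.7% of all genes) and an E2F word in 11 (28.2%, against 13.1%). Among members that fell in the untreated KO, 23 of 26 held a CHR word, and among the other members 9 of 13 did. CDC20 and PLK1, which did not fall, carry CHR and CCAAT words just as BUB1, CDK1 and CCNB2 do. CCNA2 and CCNB1, which fell, hold no CHR word, and CENPE, which fell, and KIF2C, which did not, hold no word of any kind searched. A match is a description of the letters and not a binding site.

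The first comparison asks how these genes differ between KO and CT cells without ATRA. Of the 46 members, 28 were lower in KO and 0 were higher at an adjusted p under 0.05 by edgeR's quasi-likelihood test, with Benjamini-Hochberg adjustment over all 19130 genes. Among all genes tested, 21.9% were called lower and 13.0% higher, and among the 9478 with a mean of at least 10 CPM 23.6% were lower. The members' median log2 fold change was -1.10, against -0.11 over all genes, and the members ran from -2.88 for HMMR to 0.60 for FOXM1. At an unadjusted p under 0.05 there were 31 lower (67.4%) and 1 higher (2.17%), against 28.3% and 19.0% of all genes. DESeq2 called 28 lower and 2 higher, counts given without a share of all genes. The KO libraries lay wholly below the CT libraries for 31 members and wholly above for 3, against 27.0% and 20.9% of all genes.

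**Figure D1:**
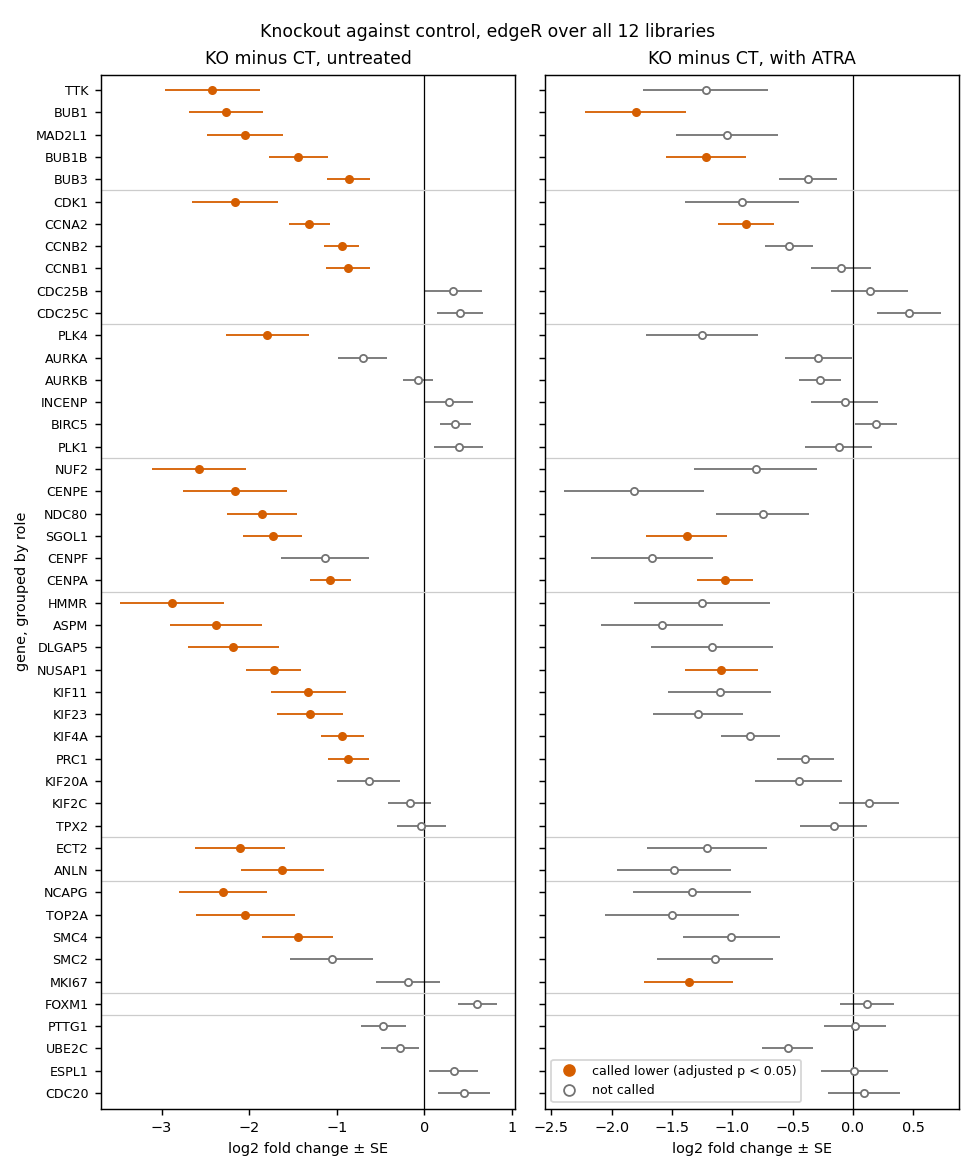
Log2 fold change, KO over CT, of the 46 members grouped by role, untreated and with ATRA, with the standard error of the edgeR fit as bars and members past the threshold marked by filled points. Without ATRA the members ran from -2.88 to 0.60 and 28 were called lower, and with ATRA they ran from -1.81 to 0.46 and 7 were called lower.

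All 5 spindle checkpoint genes fell in the untreated KO. BUB1, the checkpoint kinase that marks centromeric chromatin, was at 26.3, 21.4 and 21.5 CPM in KO and at 66.2, 114 and 152 CPM in CT. The groups did not overlap, and the log2 fold change was -2.26 ± 0.42 (SE, n = 3 libraries per group; edgeR adjusted p = 0.00437). MAD2L1, which encodes the MAD2 protein that holds back CDC20, was at 14.0, 14.2 and 18.9 CPM in KO and at 31.8, 103 and 60.3 CPM in CT. Its difference was -2.05 ± 0.44 (SE; edgeR adjusted p = 0.00656), with every KO library below every CT library. TTK, the MPS1 kinase that starts checkpoint signalling, had a log2 fold change of -2.42, BUB1B (BUBR1) of -1.44 and BUB3, the partner of both BUB1 and BUBR1, of -0.87. With each library's trend on GC content removed, BUB1 (-1.38) and TTK (-1.35) stayed past the threshold, BUB1B (-0.71) and MAD2L1 (-0.78) did not, and BUB3 turned to 0.08 (edgeR adjusted p = 0.854).

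Of the cyclins, CDK1 and its phosphatases, 4 of 6 fell. CCNA2, the S and G2 phase cyclin A2, was at 29.8, 26.6 and 43.6 CPM in KO and at 68.99, 85.9 and 94.0 CPM in CT. Its log2 fold change of -1.32 ± 0.23 had the smallest adjusted p of the members (standard error; edgeR adjusted p = 0.00363). CCNB2, a B-type cyclin partner of CDK1, was at 69.02, 68.5 and 94.4 CPM in KO and at 132, 156 and 158 CPM in CT, a log2 fold change of -0.95 ± 0.20 (standard error; edgeR adjusted p = 0.00661). CDK1 itself, the kinase that drives mitotic entry, was at 20.9, 20.2 and 22.0 CPM in KO and at 37.4, 152 and 92.9 CPM in CT, a log2 fold change of -2.16, and CCNB1 had -0.87. CDC25B and CDC25C, the phosphatases that activate CDK1, did not pass the test, at 0.33 and 0.41. With the GC trend removed, 0 of the 4 calls remained, and the log2 fold changes were -0.45 for CCNA2, -0.42 for CCNB2, -0.73 for CDK1 and -0.01 for CCNB1.

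The centromere and kinetochore genes fell in 5 of 6 cases, CENPF being the one that did not pass (-1.13, edgeR adjusted p = 0.0943). CENPA, the histone H3 variant that defines the centromere, was at 16.6, 17.0 and 24.9 CPM in KO and at 41.7, 45.5 and 35.8 CPM in CT. The groups were separate with little spread, and the log2 fold change was -1.07 ± 0.23 (standard error; edgeR adjusted p = 0.00684). NUF2 and NDC80 form the microtubule-binding end of the NDC80 complex. NUF2 was at 8.93, 9.33 and 9.16 CPM in KO and at 15.6, 92.2 and 55.8 CPM in CT (log2 fold change -2.58 ± 0.54, SE; edgeR adjusted p = 0.00608). NDC80 was at 9.81, 9.03 and 8.82 CPM in KO and at 15.8, 48.2 and 36.2 CPM in CT (log2 fold change -1.86 ± 0.40, SE; edgeR adjusted p = 0.00657). For both genes the KO libraries were almost equal, and CT untreated 1 stood closest to them. SGOL1, the shugoshin that protects centromeric cohesin, was at 5.73, 4.65 and 6.68 CPM in KO and at 15.6, 15.0 and 26.0 CPM in CT (log2 fold change -1.73 ± 0.34, SE; edgeR adjusted p = 0.00494). CENPE, a kinetochore kinesin, had a log2 fold change of -2.16. With the GC trend removed, the calls of CENPA (-0.96) and NUF2 (-1.29) remained, and those of NDC80 (-0.69), SGOL1 (-0.59) and CENPE (-0.65) did not.

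Among the kinesins and spindle assembly genes, 8 of 11 fell. NUSAP1, a protein that bundles spindle microtubules, was at 40.4, 32.6 and 40.4 CPM in KO and at 74.2, 131 and 169 CPM in CT, a log2 fold change of -1.72 ± 0.31 (standard error; edgeR adjusted p = 0.00376). HMMR, a spindle-associated hyaluronan receptor, was at 6.99, 6.77 and 7.45 CPM in KO and at 15.6, 77.0 and 63.7 CPM in CT, a log2 fold change of -2.88 ± 0.60 (standard error; edgeR adjusted p = 0.00602). Both genes were separate between the groups, but the CT libraries of HMMR differed among themselves more than KO did from CT untreated 1. The other called genes were ASPM (-2.38), which acts at spindle poles, DLGAP5 (-2.18), KIF11 (-1.32), the Eg5 motor that separates the poles, KIF23 (-1.30), KIF4A (-0.94) and PRC1 (-0.87), which bundles the central spindle. KIF20A (-0.64), KIF2C (-0.17) and TPX2 (-0.04), an activator of Aurora A, did not pass the test. With the GC trend removed, 4 of the 8 calls remained: NUSAP1 (-1.74), HMMR (-1.35), ASPM (-0.999) and PRC1 (-0.85). KIF11 stood at -0.19 in that fit.

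Both cytokinesis genes fell, ECT2 at -2.10 and ANLN (anillin) at -1.62. Of the chromosome structure genes, NCAPG (-2.30) and SMC4 (-1.45), both condensin subunits, and TOP2A (-2.04), the DNA topoisomerase of dividing cells, fell, while the condensin gene SMC2 (-1.06, edgeR adjusted p = 0.0995) did not pass. With the GC trend removed, the call of NCAPG (-1.03) remained, and ECT2 (-0.77), ANLN (-0.48), TOP2A (-0.78) and SMC4 (-0.12) were no longer called. MKI67, the source of the Ki-67 antigen, was at 255, 212 and 223 CPM in KO and at 276, 187 and 323 CPM in CT. These groups overlapped, and the log2 fold change of -0.19 ± 0.36 did not pass (standard error; edgeR adjusted p = 0.706).

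The mitotic kinases and anaphase genes behaved otherwise by count. Only PLK4, the centriole duplication kinase, fell among the 6 kinases and chromosomal passenger genes (-1.79, and -0.53 without a call once the GC trend was removed), and 0 of the 4 anaphase genes CDC20, UBE2C, PTTG1 and ESPL1 passed. PLK1, the polo-like kinase of mitotic entry, was at 279, 278 and 380 CPM in KO and at 326, 141 and 249 CPM in CT, overlapping groups with a log2 fold change of 0.39 ± 0.28 (standard error; edgeR adjusted p = 0.290). CDC20, the co-activator of the anaphase-promoting complex (APC/C), was at 337, 348 and 535 CPM in KO and at 408, 201 and 280 CPM in CT, also overlapping (0.46 ± 0.30, SE; edgeR adjusted p = 0.243). FOXM1, the transcription factor that activates many of the other members, was at 742, 723 and 907 CPM in KO and at 674, 396 and 495 CPM in CT. Every KO library was above every CT library, with a log2 fold change of 0.60 ± 0.22 just outside the threshold (standard error; edgeR adjusted p = 0.0524), and FOXM1 was called higher with the scaling of DESeq2's size factors (RLE, 0.67, edgeR adjusted p = 0.0387) and by DESeq2. It was not called with the GC trend removed (0.27, edgeR adjusted p = 0.374), with the replicate block (0.61, adjusted p = 0.0797), with near-identical libraries summed (0.66, adjusted p = 0.126) or without KO untreated 3 and KO ATRA 2 (0.49, adjusted p = 0.157). AURKA, AURKB, BIRC5 and INCENP had log2 fold changes of -0.71, -0.08, 0.35 and 0.28, none past the threshold. Every KO library of AURKA was below every CT library (edgeR adjusted p = 0.0637). AURKA was called lower without KO untreated 3 and KO ATRA 2 (-1.01, edgeR adjusted p = 0.015). It was not called with the GC trend removed (-0.50, edgeR adjusted p = 0.185). Every KO library of BIRC5 was above every CT library, and DESeq2 called BIRC5 higher (0.43, DESeq2 adjusted p = 0.0483). The transcript of PLK4 has 38.1% GC, that of AURKA 46.6% and that of PTTG1 49.3%. Transcripts of the other kinase, passenger and anaphase genes run from 50% (UBE2C) to 58.8% (INCENP), and FOXM1 has 55.7%. Role and GC content thus run together in these genes, and the part of each was not tested.

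**Figure D2:**
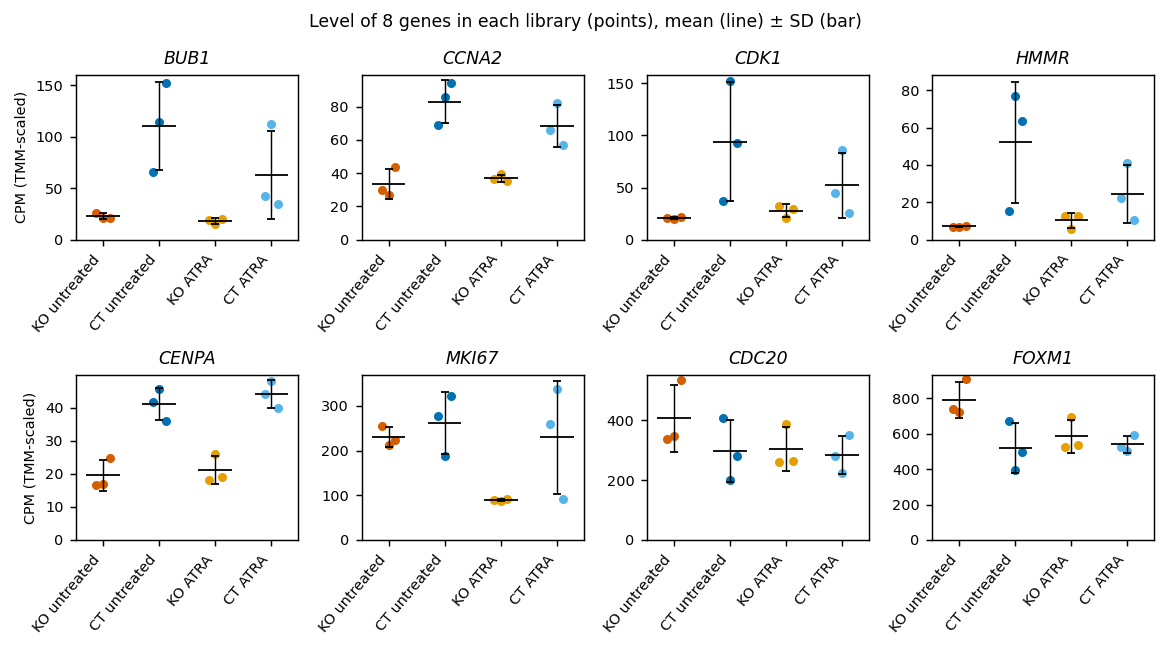
CPM on TMM-scaled library sizes, on linear axes that start at 0, for BUB1, CCNA2, CDK1, HMMR, CENPA, MKI67, CDC20 and FOXM1, with 1 point per library, a line at the mean and a bar of ± SD, in KO and CT cells without and with ATRA. The KO untreated libraries lie below the CT untreated libraries for BUB1 (21.4 to 26.3 against 66.2 to 152 CPM) and overlap them for CDC20 (337 to 535 against 201 to 408 CPM).

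The count of lower members fell to 9 when each library's trend of expression on GC content was removed. The median log2 fold change of the 28 was then -0.72, against -1.76 before, 24 of them became smaller by over 1.5 times, and 1 of these, BUB3, changed sign. The count fell to 3 when the near-identical KO libraries were summed, though the log2 fold changes moved little. HMMR was then at -2.86 (edgeR adjusted p = 0.0512), KIF11 at -1.30 (edgeR adjusted p = 0.122) and BUB3 at -0.75 (edgeR adjusted p = 0.102). In that fit 37 members lay below 0, against 38 in the reported fit. The count was 17 without CT untreated 3 and 17 without KO untreated 2, and 23 with KO untreated 3 and KO ATRA 2 both left out. The 9 genes were BUB1, TTK, CENPA, NUF2, PRC1, NUSAP1, HMMR, ASPM and NCAPG, and the 3 were BUB1, CCNA2 and NUSAP1. BUB1 and NUSAP1 were called under both. The 21.9% of all genes called lower belongs to the reported fit only. The counts under other settings are therefore not set against all genes, and they are not read as a result about the members.

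GC content moved with genotype and with these genes. The rank correlation of a library's expression, relative to the mean of all libraries, with GC content across genes was 0.325 to 0.477 in KO untreated, against -0.377 to -0.217 in CT untreated, and 0.118 to 0.277 in KO with ATRA, against -0.308 to 0.0914 in CT with ATRA. Members' transcripts ran from 35.4% GC (CENPE) to 59.1% (CDC25B), with a median of 42.2%, against 48.8% for all genes tested that had a value. Across the 46 members the untreated log2 fold change had a Pearson r of 0.88 and a Spearman rho of 0.86 with GC content. Over the 16377 genes with a GC value the same r and rho were 0.35 and 0.45. These points share the same libraries and carry no test. With the GC trend removed, r and rho over the members were 0.45 and 0.47. With ATRA they were 0.76 and 0.70 in the reported fit, and 0.34 and 0.37 with the trend removed.

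Read by GC class, with class edges chosen after the values were seen, the share of genes lower in the untreated KO dropped with rising GC content, in the members and in all genes. Below 40% GC, 16 of 17 members fell, against 62.1% of all genes of that class and 72.4% of those with a mean of at least 10 CPM. Between 40 and 45% it was 8 of 9 members, against 42.5% and 49.6%. Between 45 and 50% it was 4 of 10, against 14.5% and 13.4%, and at 50% or more it was 0 of 10, against 6.17% and 2.84%. With ATRA there was no such order from the lowest class: 1 of 17, 3 of 9, 3 of 10 and 0 of 10 members fell, against 5.80%, 6.67%, 4.09% and 3.74% of all genes. Without ATRA the members of the last class, the most GC-rich, had a median log2 fold change of 0.33, close to the 0.35 of all genes of that class. Removal of the trend also removes any genotype difference that runs with GC content, and the part of GC content in these results was not tested further.

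**Figure D3:**
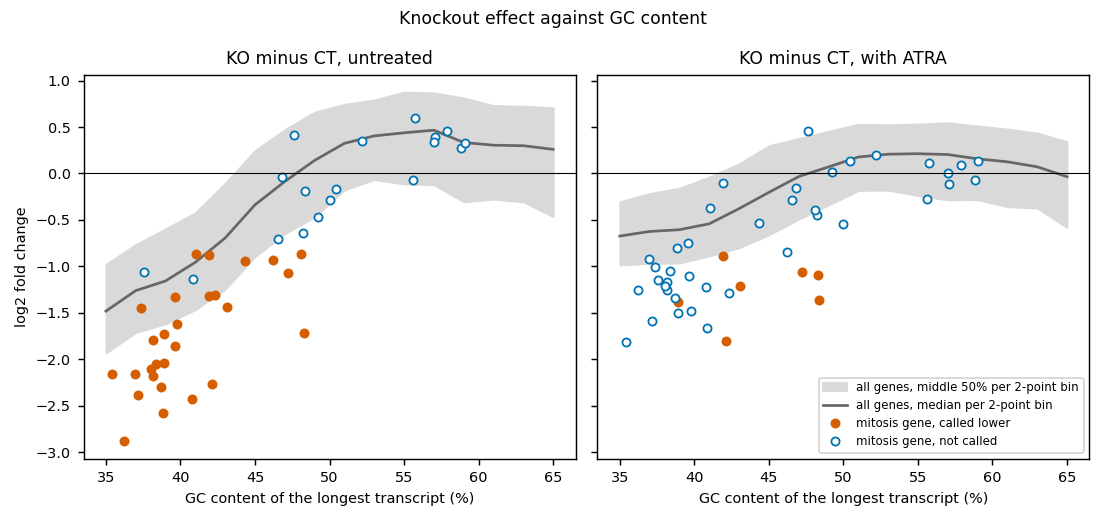
Log2 fold change, KO over CT, without ATRA (left) and with ATRA (right), against the GC content in percent of each member's longest annotated transcript, 1 point per member, filled where called lower, over the median (line) and middle 50% (band) of all genes in 2-point bins of GC content. Without ATRA the members below 40% GC lie between -2.88 and -1.06, and the line for all genes rises over the GC-poor range too.

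With ATRA the same genotype comparison gave 7 lower members and 0 higher (edgeR adjusted p under 0.05), against 4.24% and 3.27% of all genes, and 4.91% lower among genes with a mean of at least 10 CPM. At an unadjusted p under 0.05 there were 26 lower (56.5%) and 0 higher, against 17.2% and 10.9% of all genes. DESeq2 called 13 lower and 0 higher, again without a share of all genes. The median log2 fold change of the members was -0.90, against -0.06 over all genes, and they ran from -1.81 (CENPE) to 0.46 (CDC25C). KO libraries lay wholly below CT libraries for 14 members and above for 1, against 17.9% and 16.7% of all genes. Of the 28 members lower without ATRA, 6 were also lower with it (21.4%), which is 85.7% of the 7. Over all genes 593 were lower in both, 14.1% of those lower without ATRA and 73.1% of those lower with it. As a share of the genes tested this is 13.0% of the members, against 3.10% of all genes. MKI67 was the seventh.

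CENPA was at 18.1, 25.9 and 19.1 CPM in KO with ATRA and at 44.1, 48.2 and 39.8 CPM in CT with ATRA, a log2 fold change of -1.06 ± 0.23 (SE, n = 3 libraries per group; edgeR adjusted p = 0.0207). BUB1 was at 19.2, 15.2 and 20.1 CPM in KO and at 42.6, 113 and 34.4 CPM in CT (-1.80 ± 0.42, SE; edgeR adjusted p = 0.0258). SGOL1 was at 5.9997, 5.96 and 6.501 CPM in KO and at 15.5, 22.8 and 9.77 CPM in CT (-1.38 ± 0.33, SE; edgeR adjusted p = 0.0300). In all of these the KO libraries lay below the CT libraries. CCNA2 was at 36.5, 39.3 and 35.0 CPM in KO and at 66.2, 81.9 and 57.2 CPM in CT (-0.89 ± 0.23, SE; edgeR adjusted p = 0.0389). NUSAP1 was at 36.1, 36.6 and 35.3 CPM in KO and at 57.3, 109 and 63.8 CPM in CT (-1.09 ± 0.30, SE; edgeR adjusted p = 0.0491). BUB1B, the checkpoint pseudokinase BUBR1, was at 17.0, 15.8 and 18.5 CPM in KO and at 37.7, 58.5 and 23.2 CPM in CT (-1.22 ± 0.33, SE; edgeR adjusted p = 0.0452). These genes too did not overlap, though CT ATRA 3 was the lowest CT library for CENPA, BUB1, SGOL1, CCNA2 and BUB1B. MKI67 was at 88.3, 88.0 and 91.9 CPM in KO and at 260, 338 and 91.1 CPM in CT. Its groups overlapped, since CT ATRA 3 stood among the KO libraries, and the log2 fold change was -1.36 ± 0.37 (standard error; edgeR adjusted p = 0.0447).

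Of the 4 most abundant members, MKI67 was thus lower under ATRA, and the other 3 did not pass the test. FOXM1 was at 526, 694 and 536 CPM in KO and at 524, 503 and 591 CPM in CT (0.12 ± 0.22, SE; edgeR adjusted p = 0.767). CDC20 was at 261, 388 and 263 CPM in KO and at 281, 224 and 351 CPM in CT (0.09 ± 0.30, SE; edgeR adjusted p = 0.869). PLK1 was at 199, 281 and 207 CPM in KO and at 226, 239 and 281 CPM in CT (-0.12 ± 0.28, SE; edgeR adjusted p = 0.817). All 3 overlapped between the groups. Other members kept large differences with wide errors and no call, such as CENPF (-1.67, edgeR adjusted p = 0.0626), ASPM (-1.58, edgeR adjusted p = 0.0721) and TOP2A (-1.50, edgeR adjusted p = 0.106).

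The count of 7 rested on single libraries. It was 19 without CT ATRA 3 and 0 without CT ATRA 2, KO ATRA 1 or KO ATRA 3. It was 1 without KO ATRA 2, 3 without CT ATRA 1, and 2, 3 and 4 without KO untreated 1, 2 and 3. With the GC trend removed it was 2 (BUB1 and CENPA), and with the near-identical libraries summed it was 0. In the summed fit BUB1 stood at -1.85 (edgeR adjusted p = 0.149) and CENPA at -0.98 (edgeR adjusted p = 0.162). The 4.24% of all genes called lower with ATRA belongs to the reported fit, and these other counts have no such share beside them.

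**Figure D4:**
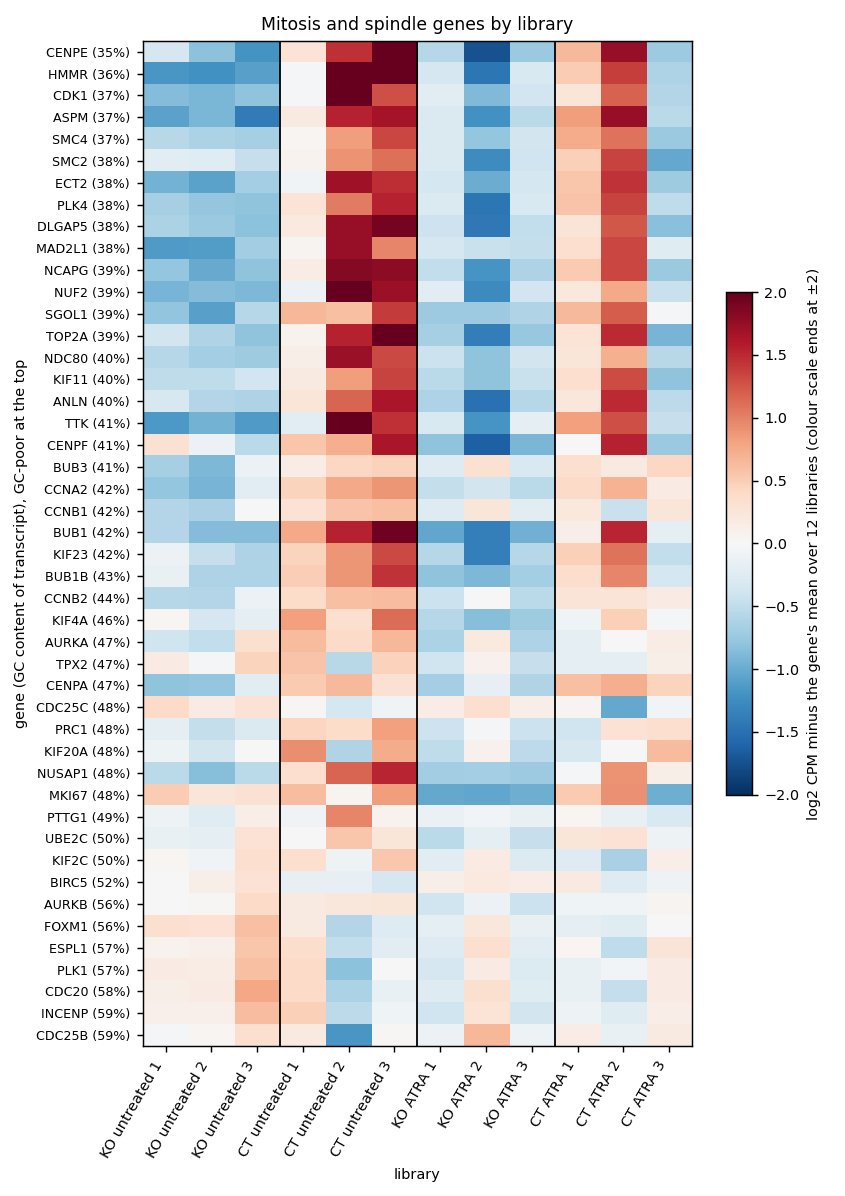
Log2 CPM of each of the 46 members in each of the 12 libraries, relative to that gene's mean over all libraries, with members ordered by GC content (in parentheses), GC-poor at the top, and colours that end at ±2. The median over members is -0.585 to -0.336 in KO untreated, 0.251 to 1.03 in CT untreated, -0.702 to -0.403 in KO with ATRA and -0.145 to 0.742 in CT with ATRA, where CT ATRA 3 holds the low end.

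The members varied more among CT libraries than among KO libraries. The ratio of the highest to the lowest library had a median over members of 1.30 in KO untreated, against 2.10 in CT untreated, and of 1.45 in KO with ATRA, against 2.21 in CT with ATRA. The ratio exceeded 2 for 0 members in KO untreated, 27 in CT untreated, 5 in KO with ATRA and 24 in CT with ATRA. NUF2 had the largest ratio in CT untreated, 5.91, and AURKB the smallest, 1.04. CT untreated 1 was the lowest CT untreated library for 29 members and CT untreated 3 the highest for 25. With ATRA, CT ATRA 3 was the lowest for 28 and CT ATRA 2 the highest for 28. CT ATRA 3 was also the CT library whose GC correlation was above 0, at 0.0914.

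The response to ATRA passed the test for 0 of 46 members in CT cells and for 0 in KO cells, against 0.115% and 0.0314% of all genes by edgeR. At an unadjusted p under 0.05, 4 members were lower in CT (8.70%, against 10.8% of all genes) and 3 in KO (6.52%, against 4.58% of all genes), and DESeq2 called 0 in CT and 1 in KO. The median log2 fold change, ATRA over untreated, was -0.41 in CT and -0.08 in KO. The lowest value in CT was NUF2, at 19.6, 28.8 and 12.5 CPM with ATRA and at 15.6, 92.2 and 55.8 CPM untreated (-1.43 ± 0.51, SE; edgeR adjusted p = 0.150). In KO it was MKI67, at 88.3, 88.0 and 91.9 CPM with ATRA and at 255, 212 and 223 CPM untreated (-1.36 ± 0.37, SE; edgeR adjusted p = 0.166). All 3 MKI67 libraries with ATRA lay below the untreated ones, and MKI67 is the member that DESeq2 called there (-1.38, DESeq2 adjusted p = 0.0234).

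A direct test of whether the ATRA response differed between KO and CT called 0 members, against 0.00% of all genes (edgeR), with 3 at an unadjusted p under 0.05 (6.52%, against 9.76% of all genes) and 0 by DESeq2. The 3 were NUF2 (1.77 ± 0.72, SE), CCNB1 (0.77 ± 0.35, SE) and MKI67 (-1.17 ± 0.52, SE), each with an edgeR adjusted p of 0.509 or 0.510. The smaller genotype difference with ATRA, seen in 39 of 46 members, is therefore not shown to be a changed response at this spread.

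Per kilobase of the deposited gene length, CDC20 had the highest level in CT untreated, 146 CPM per kb, followed by UBE2C, the ubiquitin-conjugating enzyme of the APC/C, at 137 and FOXM1 at 109. CENPE and SGOL1 had the lowest, at 3.17 and 4.93 CPM per kb. In KO untreated the same per-length level was 200 for CDC20, 165 for FOXM1 and 113 for UBE2C, so that FOXM1 stood above UBE2C there, and 0.709 for CENPE and 1.49 for SGOL1.

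**Figure D5:**
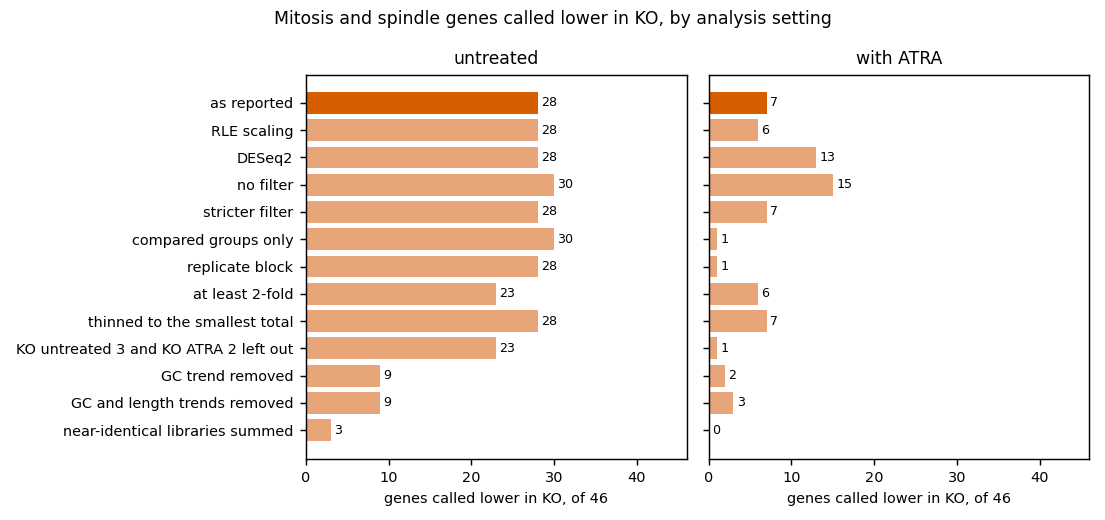
Number of the 46 members called lower in KO (adjusted p under 0.05) as bars, for the reported fit and 12 other settings, without ATRA (left) and with ATRA (right). Without ATRA the count ranges from 3 with near-identical libraries summed to 30 with no filter, and with ATRA from 0 with those libraries summed to 15 with no filter.

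Genes of the same pathways outside the set were counted in the same test, in which 21.9% of all genes were lower and 13.0% higher. Of 14 further APC/C genes 9 were lower (64.3%) and 0 higher in the untreated KO, led by the scaffold subunit ANAPC1 (-2.14), CDC23 (-1.38) and ANAPC4 (-2.24). Of 27 further kinetochore genes 15 were lower (55.6%) and 0 higher, led by CENPH (-1.96), SKA2 (-1.33) and MIS12 (-1.46). Among 13 condensin and cohesin genes 6 were lower (46.2%), with NCAPG2 (-1.76) and the cohesin acetyltransferase ESCO2 (-1.77), and 1 was higher, the condensin II gene NCAPH2 (0.81). The 19 genes of DREAM, MuvB, E2F and RB had 4 lower (21.1%) and 3 higher (15.8%), close to the shares of all genes. E2F6 (-1.14) and LIN9 (-1.57) were among the lower, and the higher were LIN37 (1.53), E2F4 (0.69) and E2F1 (0.68). LIN37 stood at low means, 0.64 CPM in CT untreated and 1.85 CPM in KO untreated, against 122 and 198 CPM for E2F4. The 20 replication and G1/S genes had 2 lower (10%), RRM1 (-1.47) and MCM6 (-1.24), and 5 higher (25%), among them GINS2 (1.09). The lower genes named here have transcripts of 36.5% GC (SKA2) to 44.6% (ANAPC1). The higher ones have 48.6% (GINS2), 59.1% (LIN37), 59.3% (E2F4), 61.3% (NCAPH2) and 61.6% (E2F1). These lists were chosen with earlier results of these data known. They are set beside all genes and not beside genes of like GC content, and the part of GC content in them was not tested. With ATRA these lists had at most 1 called gene lower each: ANAPC1 (-1.69), CENPI (-1.03), NCAPG2 (-1.38) and MCM6 (-1.20), and none in the DREAM list.

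Of 7 CDK inhibitor genes, 3 were higher and 1 lower in the untreated KO. CDKN1A was at 595, 648 and 404 CPM in KO and at 38.5, 32.5 and 56.5 CPM in CT, a log2 fold change of 3.69 ± 0.30 (standard error; edgeR adjusted p = 0.000168). With ATRA it was at 677, 470 and 690 CPM in KO and at 48.5, 67.8 and 45.4 CPM in CT (edgeR adjusted p = 0.000266). CDKN2C (3.22) was also higher without ATRA, at low means of 0.32 CPM in CT and 2.99 CPM in KO. Without ATRA CDKN1B (-0.95) was lower. With ATRA, CDKN1C was lower (-1.01). CDKN1A was thus high in all 6 KO libraries, including KO untreated 3 and KO ATRA 2, and its part in the levels of the mitosis genes was not tested.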

How the data were processed

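The authors deposited raw counts per gene as whole numbers, 1 column for each of the 12 libraries, with a gene length in bases. Per the labels' protocols the libraries came from a TruSeq stranded mRNA kit. Per the submitters' processing notes, bcl2fastq, TopHat2, Subread, featureCounts and DESeq2 were used with hg19 and GRCh37. Versions, annotation and strand setting: not given in the sources used here, so overlapping, antisense and near-identical genes may share reads.

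Genes passing edgeR's filterByExpr (minimum count 10; 19130 of 56638) were scaled by TMM and fitted by quasi-likelihood over the 4 groups together (edgeR 4.0.16, R 4.3.3). Benjamini-Hochberg adjustment covered all genes tested, and calls were made at an adjusted p under 0.05. The biological coefficient of variation was 0.367. CPM use TMM-scaled totals. The steps were also run on simulated counts. Those held no GC trend and no near-identical libraries, so they do not show how the steps handle either. Full values are given for members called in a genotype comparison, up to 10 by smallest adjusted p, and for the 4 with the largest mean CPM. Genes outside the set are PRMT6, CDKN1A and up to 3 called genes per list with the smallest adjusted p. E2F1 and E2F4 were added so that all higher genes of the DREAM list are named. The members and lists were chosen with earlier results of these data known.

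GC content came from the longest GENCODE v44 transcript on GRCh38, a build other than the authors', joined through symbols for 85.6% of genes tested and all 46 members. Trends were removed as a lowess offset (span 0.3). Other settings were RLE scaling, DESeq2 1.42.0, no filter, a filter of over 1 CPM in at least 3 libraries, the compared groups only, the replicate block, a fold of at least 2, each library left out and near-identical libraries summed. Added after the data were seen were GC with length, libraries that stand apart left out, and thinning to the smallest total.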

Additional observations from a re-analysis of the deposited data

How the results depend on the processing

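The untreated count of 28 lower members was 9 with the GC trend removed, 9 with GC and length trends removed, 5 with the GC trend removed and a replicate block, and 3 with near-identical libraries summed; the range over single libraries left out was 17 to 29. The count of 0 higher members was 1 with RLE scaling, 2 with DESeq2 (FOXM1 and BIRC5), 1 with the stricter filter and 1 with thinned counts, and 0 to 1 with single libraries left out. The ATRA count of 7 lower members was 13 with DESeq2, 15 without a filter, 1 with the compared groups only, 2 with the GC trend removed, 3 with GC and length trends removed, 0 with near-identical libraries summed, 1 without KO untreated 3 and KO ATRA 2, 3 without those and CT ATRA 3, and 0 to 19 with single libraries left out. With the replicate number as a block the untreated count stayed at 28 and the ATRA count was 1 (CENPA), also 1 with the GC trend removed. Same-numbered KO and CT libraries did not vary together (correlations of their deviations -0.132 to -0.0146 untreated and -0.170 to -0.0897 with ATRA). Between untreated and ATRA libraries of a genotype the correlations were mixed. For numbers 1, 2 and 3 they were 0.119, 0.344 and -0.255 in CT, and 0.626, -0.59 and -0.676 in KO. The numbers thus gave no steady pairing over the 4 groups. The ATRA response in CT, 0 members, was 1 without a filter and 0 to 4 with single libraries left out; in KO, 0 members, it was 1 with DESeq2, without a filter and with the compared groups only. The cause of these shifts was not tested. Shares of all genes called are given for the reported fit only, so the counts of the other settings stand without that background.

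Of members named with full values, FOXM1 with ATRA turned to -0.022 with the GC trend removed, -0.020 with the block added, -0.022 with length added, -0.022 without KO untreated 3 and KO ATRA 2, and -0.023 to 0.21 over single libraries left out. CDC20 with ATRA turned to -0.016, -0.073 and -0.12 in the GC, GC with length and left-out settings, and to -0.056 without CT ATRA 2, with a range of -0.12 to 0.29 over single libraries left out. PLK1 with ATRA ranged over -0.29 to 0.0048. All of these were uncalled.

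Members at the lowest levels, such as SGOL1 at 4.65 CPM in KO untreated 2, still rest on well over 3 counts. Whether depth or the spread between libraries limits a comparison was not tested. With 3 libraries per group and 1 KO line, a p that misses the threshold does not show that values are alike.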

Other observations

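Gene length was related to the genotype difference more with ATRA than without it, as a description across the 46 members, which share their libraries. The log2 fold change, KO over CT, had a Pearson r of -0.51 and a Spearman rho of -0.55 with the log2 of gene length with ATRA, and of -0.23 and -0.27 without. The longest members did not move alike: MKI67 was at -1.36 with ATRA and -0.19 without, and CENPF at -1.67 and -1.13, while ASPM was at -1.58 and -2.38 and CENPE at -1.81 and -2.16. For MKI67 the test of the difference between both comparisons, the interaction, did not pass (edgeR adjusted p = 0.509). The difference between both relations was not tested.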
